A study of Arabidopsis thaliana with 12 samples.

Results

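The genes described here are those of the mitochondrial chromosome that the array reads by their own name. They were chosen as probe sets annotated to 1 gene whose symbol begins, in lower case, with nad, cox, cob, ccb or orf, and that is not on the plastid chromosome. Of 22810 probe sets on the array, 22 matched, for 15 genes, and 17 of them, for 13 genes, had a mean intensity over the 12 arrays of at least 20. The 17 comprised 11 nad probe sets for 7 genes, 3 ccb probe sets, 2 cox probe sets and 1 orf probe set. No probe set with a single name was given to cob, so that class was not analysed here. In RefSeq all 22 matched a gene of the mitochondrial chromosome by symbol or synonym, and 0 matched by gene ID. RefSeq lists ccb206 as ccmB, ccb382 as ccmFN1, ccb452 as ccmFC, ccb203 as ccmFN2 and orfX as mttB.

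Whole seedlings of Arabidopsis thaliana, ecotype Columbia, were compared in 4 genotypes with 3 arrays each. These were wild type, sdg8 and hub2, each mutant alone, and sdg8hub2, which carries both mutations. SDG8 encodes a histone methyltransferase that acts on lysine residues of histone H3, and HUB2 encodes a RING ubiquitin ligase for histone H2B. All 4 groups were sampled at 6 days after growth at 22 °C in days of 16 h light and 8 h dark. The labels give the mutants by gene name with no allele, and give the 3 arrays of a group as biological replicates. Because whole seedlings were used, more mitochondria or more cells of a type and more transcript per mitochondrion cannot be told apart.

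The mitochondrial genome of plants encodes only a small part of the organelle's proteins, chiefly subunits of the respiratory chain, factors for cytochrome c maturation and ribosomal proteins, while the nucleus encodes the rest. The nad genes encode subunits of complex I, the NADH dehydrogenase that passes electrons to ubiquinone, and the cox genes encode subunits of complex IV, the cytochrome c oxidase. The ccb genes, now named ccm, encode parts of the machinery that attaches heme to c-type cytochromes. Phage-type RNA polymerases encoded in the nucleus transcribe these genes, and the transcripts are then spliced, trimmed and edited by nuclear-encoded proteins. In plant mitochondria poly(A) tails mark transcripts for degradation. Where labelling primes from poly(A), a change in all transcripts of a gene and a change in their tailed part cannot be told apart. Chromosome 2 of the Columbia ecotype carries a large copy of the mitochondrial genome.

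Signals are given as the deposited linear intensities, scaled so that the mean of each array after trimming 2% at each end was 500. Most of the members were dim: their means over the 12 arrays ran from 22.8 to 830, and 13 of 17 lay below 100, against array medians of 137 to 155. On all 12 arrays 11 of the 17 had an intensity of at least 20, and 6 did not. Just inside the minimum lay a nad1 probe set at 22.8, nad6 at 26.9 and a second nad1 probe set at 37.1. Just outside lay a nad1 probe set at 19.3, nad7 at 18.3 and a nad5 probe set at 17.2, and the other probe sets left out were ccb203 at 12.7 and a nad1 probe set at 12.3. The dimmest nad1 member did not pass the filter on low values, so 16 of the 17 members were tested. An intensity depends on the probe, so levels are compared across samples and not between genes.

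Each comparison was a limma fit over 18196 probe sets, with p-values adjusted by the Benjamini-Hochberg procedure over all of them and a threshold of 0.05. In sdg8 against wild type, 2 of the 16 members passed, both higher, where 6.41% of all probe sets passed as higher and 7.86% as lower. In hub2 against wild type 0 of 16 passed by limma, and 0 had an unadjusted p under 0.05, where 1.4% of all probe sets passed as higher and 1.46% as lower. In sdg8hub2 against wild type 2 of 16 passed, both higher, where the background was 8.01% higher and 10.5% lower. The genes that passed were ccb382 and nad4 in both sdg8 and sdg8hub2. The median log2 change over the 16 members was 0.15 in sdg8, -0.13 in hub2 and 0.25 in sdg8hub2, against -0.02, 0.00 and -0.05 over all probe sets tested. The log2 change was above 0 for 9 of 16 members in sdg8, 7 in hub2 and 13 in sdg8hub2, against 8614, 9105 and 8103 of the 18196 probe sets. With 0 to 2 of 16 passing, the count of calls among the members was close to the background of each comparison.

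**Figure D1:**
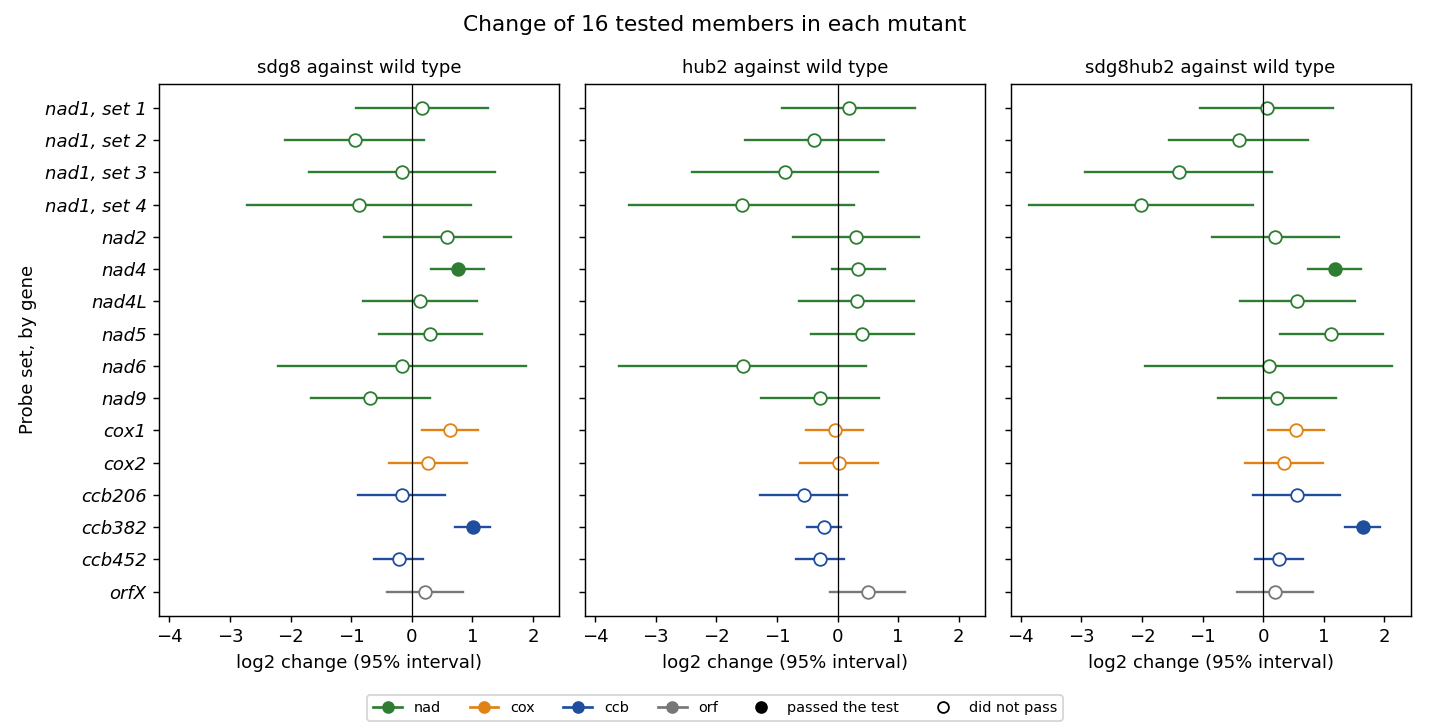
The log2 change of the 16 tested probe sets in sdg8, hub2 and sdg8hub2 against wild type, with points for the estimate, lines for its 95% interval and filled points for those that passed the test, with 3 arrays in each group. Only ccb382 and nad4 are filled, in sdg8 and in sdg8hub2, and the longest intervals are those of nad1 and nad6.

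Of the changes against wild type that passed, the largest was that of ccb382, which encodes a part of the heme lyase complex of cytochrome c maturation. Its intensity was 436, 497 and 483 in wild type, 1127, 925 and 814 in sdg8, 438, 425 and 357 in hub2, and 1766, 1454 and 1236 in sdg8hub2, for replicates 1, 2 and 3. All sdg8 arrays lay above all wild-type arrays, all sdg8hub2 arrays lay above all sdg8 arrays, and the hub2 arrays overlapped wild type. On the log2 scale the means were 8.88 ± 0.10 in wild type, 9.89 ± 0.24 in sdg8, 8.66 ± 0.16 in hub2 and 10.52 ± 0.26 in sdg8hub2 (SD, n = 3 each). The ccb382 signal rose 2.01-fold in sdg8 (limma adjusted p = 2.18e-05) and 3.12-fold in sdg8hub2 (limma adjusted p = 2.03e-08). In hub2 the log2 change of ccb382 was -0.22, with a 95% interval of -0.51 to 0.07, and did not pass (limma adjusted p = 0.494).

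Because hub2 alone stood at or below wild type, the double mutant was also set against each single mutant. The ccb382 signal was 1.55-fold higher in sdg8hub2 than in sdg8 (limma adjusted p = 0.00307) and 3.63-fold higher than in hub2 (limma adjusted p = 2.91e-09), and sdg8 exceeded hub2 2.34-fold (limma adjusted p = 1.83e-06). The interaction, the log2 change in sdg8hub2 beyond the sum of both single mutants' changes, was 0.85 for ccb382, with a 95% interval of 0.45 to 1.26 (limma adjusted p = 0.00960). It was the 1 member of 16 that passed the interaction test, where 3.05% of all probe sets passed as higher and 3.41% as lower. The brightest sdg8 array was replicate 1, and with it as the lone sdg8 array the difference of sdg8hub2 from sdg8 was 0.38 on the log2 scale (adjusted p = 0.277) and the interaction 0.60 (adjusted p = 0.187). Without the variance trend the interaction did not pass either (adjusted p = 0.0816).

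**Figure D2:**
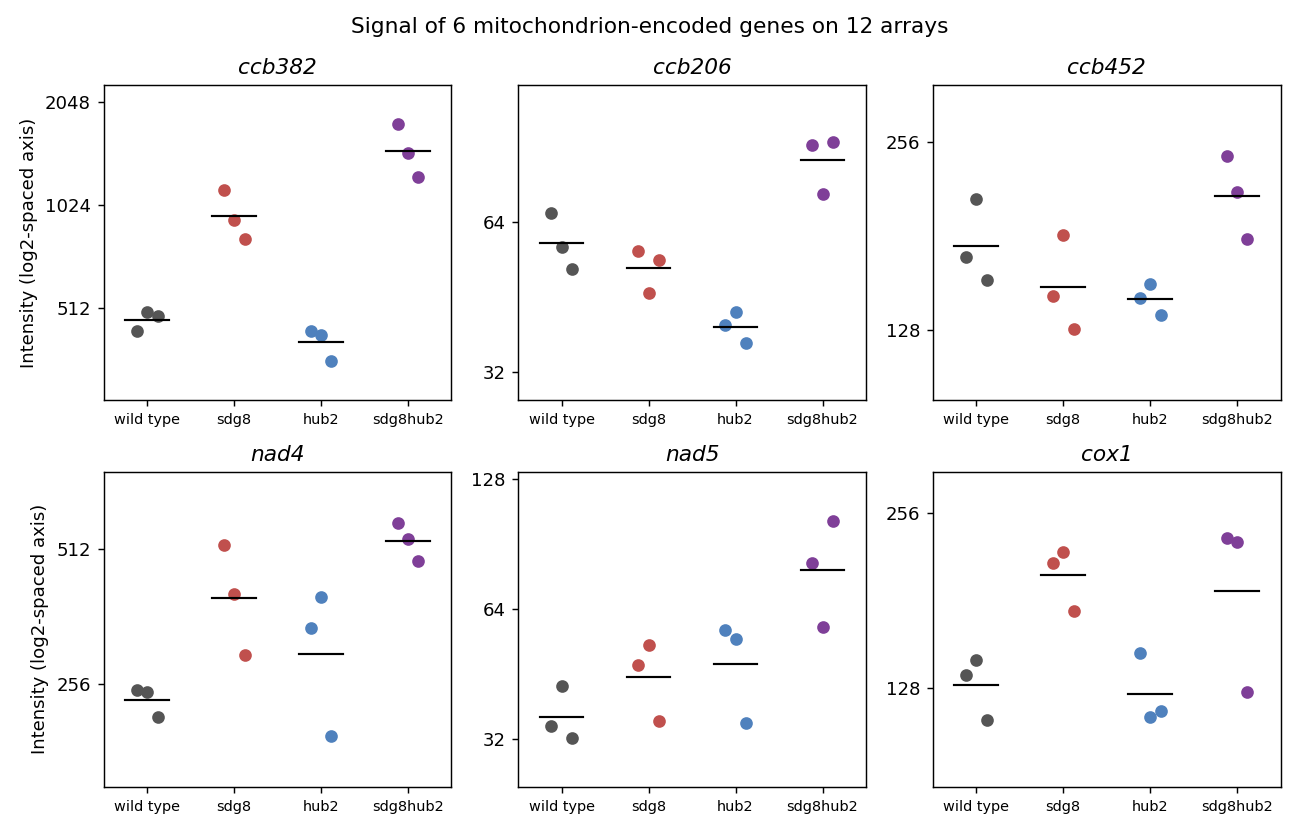
The intensity of ccb382, ccb206, ccb452, nad4, nad5 and cox1 on each of the 12 arrays, on axes spaced in log2, with 1 point for each array and a line for the mean of the log2 values of 3 arrays. For ccb382 the sdg8hub2 arrays reach 1236 to 1766 and the hub2 arrays 357 to 438, and for cox1 replicate 3 of sdg8hub2 lies at 126, among the wild-type arrays.

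The other ccb members were dimmer. For ccb206, which encodes a subunit of the transporter module of the same pathway, the intensities were 66.8, 57.1 and 51.5 in wild type, 56.0, 46.1 and 53.7 in sdg8, 39.8, 42.3 and 36.6 in hub2, and 91.2, 72.8 and 92.8 in sdg8hub2. All hub2 arrays lay below the other 9 arrays and all sdg8hub2 arrays above them. The ccb206 signal was 2.15-fold higher in sdg8hub2 than in hub2, a log2 difference of 1.11 with a standard error of 0.34 (limma adjusted p = 0.0302). The log2 change against wild type was -0.56 in hub2 (95% interval -1.27 to 0.16), -0.17 in sdg8 and 0.55 in sdg8hub2, and none of these 3 passed (limma adjusted p = 0.487, 0.811 and 0.309). The call against hub2 was lost with no filter on low values (adjusted p = 0.0575), with the actin difference described below as a covariate (0.0610), and without replicate 1 or 3 of hub2 or replicate 1 or 3 of sdg8hub2 (0.0622 to 0.0927), while in a fit with no variance trend ccb206 also passed against wild type, against sdg8 and in the interaction.

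For ccb452, whose product belongs to the same heme lyase complex as that of ccb382, the intensities were 167, 207 and 154 in wild type, 145, 182 and 128 in sdg8, 144, 152 and 135 in hub2, and 243, 213 and 179 in sdg8hub2. All hub2 arrays lay below all wild-type arrays and below all sdg8hub2 arrays, and the sdg8 arrays overlapped the hub2 and wild-type arrays. No comparison of ccb452 passed, the nearest being sdg8hub2 against hub2 at a log2 difference of 0.55 (95% interval 0.15 to 0.95, limma adjusted p = 0.0529). That difference was called in 11 of the alternative settings, with log2 differences of 0.40 to 0.66. The ccb452 probe set is of a type that can also bind related sequences.

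In all 3 ccb members hub2 had the lowest and sdg8hub2 the highest mean, while sdg8 lay above wild type for ccb382 (a log2 change of 1.01) and below it for ccb206 and ccb452 (-0.17 and -0.22, neither of which passed). All 3 had a negative log2 change in hub2 (-0.56 to -0.22), a positive one in sdg8hub2 (0.27 to 1.64) and an interaction above 0 (0.77 to 1.27), of which that of ccb382 passed. Their mean log2 signal was 7.40 ± 0.10 in wild type, 7.60 ± 0.12 in sdg8, 7.04 ± 0.11 in hub2 and 8.22 ± 0.17 in sdg8hub2 (SD, n = 3 each). The means of the 3 hub2 arrays lay below and those of the 3 sdg8hub2 arrays above all other arrays. The 3 genes lie apart on the mitochondrial chromosome in RefSeq: ccmFN1 (ccb382) neighbours ccmC and cox3, ccmB (ccb206) neighbours cox2 and rps3, and ccmFC (ccb452) neighbours nad4. Among the members tested, these 3 probe sets also had the smallest spread within groups, with pooled SDs of 0.163 to 0.207 on the log2 scale against a median of 0.219 over all probe sets tested.

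Of the 7 nad genes with a member, nad4 passed the test. It encodes one of the large membrane subunits of complex I that are related to ion antiporters. Its intensity was 249, 246 and 217 in wild type, 523, 408 and 298 in sdg8, 342, 402 and 197 in hub2, and 587, 541 and 482 in sdg8hub2. All sdg8 and all sdg8hub2 arrays lay above wild type, replicate 3 was the lowest array of hub2 and lay below wild type, and the sdg8 and sdg8hub2 arrays overlapped.

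The nad4 signal rose 1.69-fold in sdg8 (limma adjusted p = 0.0183) and 2.26-fold in sdg8hub2 (limma adjusted p = 0.000368), and it was 1.78-fold higher in sdg8hub2 than in hub2 (limma adjusted p = 0.00817). The log2 means were 7.89 ± 0.11 in wild type, 8.64 ± 0.41 in sdg8, 8.23 ± 0.54 in hub2 and 9.06 ± 0.14 in sdg8hub2 (SD, n = 3 each). In hub2 the log2 change of nad4 was 0.34 (95% interval -0.10 to 0.78, limma adjusted p = 0.486), and sdg8hub2 exceeded sdg8 by 0.42 (-0.02 to 0.86, adjusted p = 0.203), neither of which passed. The interaction for nad4 was 0.08, with an interval of -0.54 to 0.70. The rise in sdg8 was lost in the fit with no variance trend (adjusted p = 0.113) and without wild type replicate 3 (0.0725), sdg8 replicate 1 (0.111) or sdg8 replicate 2 (0.0567). The difference from hub2 was lost in the fit with no trend (0.0736) and without hub2 replicate 3, where it was 0.53 on the log2 scale in place of 0.84 (0.0683).

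For nad5, another membrane subunit of complex I, the intensities were 34.3, 42.4 and 32.3 in wild type, 47.6, 52.7 and 35.3 in sdg8, 57.3, 54.7 and 34.9 in hub2, and 81.8, 58.1 and 102 in sdg8hub2. All sdg8hub2 arrays lay above the other 9 arrays, and the other 3 groups overlapped. The log2 change of nad5 in sdg8hub2 was 1.12, with a 95% interval of 0.27 to 1.97, and did not pass (limma adjusted p = 0.0609), while 5 of the alternative settings called it, at log2 changes of 0.52 to 1.24. The nad5 probe set can also bind related sequences, and the second nad5 probe set lay below the minimum of 20.

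None of nad2, nad4L, nad6 and nad9 passed in any of the 7 comparisons. For nad2 the sdg8 arrays, at 41.3 to 50.1, lay above the wild-type arrays, at 27.8 to 35.7, and above the sdg8hub2 arrays, at 33.2 to 39.0, while the log2 change of 0.59 in sdg8 had a 95% interval of -0.46 to 1.63. The nad4L arrays ran from 29.4 to 65.7 and all groups overlapped. The nad9 arrays ran from 24.8 to 80.8, and the log2 change in sdg8 was -0.68 (95% interval -1.66 to 0.29). For nad6, replicate 1 of hub2 stood at 1.76 against 14 and 37.9 in the other hub2 arrays, and the interval of its change in hub2 ran from -3.61 to 0.48. The 6 tested nad members other than those of nad1 all had a log2 change above 0 in sdg8hub2, from 0.09 to 1.18. Their median was 0.40, against -0.05 over all probe sets. Over all 10 tested nad members, nad1 included, 7 lay above 0 and 3 below in sdg8hub2, with a median of 0.15. In sdg8 5 lay above 0 and 5 below, with a median of -0.01.

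The array reads nad1, a complex I subunit at the junction of the membrane and peripheral arms, through 7 probe sets with a single name. Of these, 5 had a mean of at least 20 and 4 were tested, called here sets 1 to 4 in the order of their probe set names. None of the 4 passed in any of the 7 comparisons. The arrays ran from 19.2 to 88.6 for set 1, from 12.2 to 117 for set 2, from 9.1 to 90.4 for set 3 and from 6.96 to 71.8 for set 4, with pooled SDs within groups of 0.662 to 1.25 on the log2 scale, against 0.350 for nad4.

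The widest estimate of nad1 was that of set 4 in sdg8hub2. Its intensities were 62.9, 48.4 and 66.2 in wild type, 37.4, 51.7 and 17.2 in sdg8, 71.8, 13.7 and 7.61 in hub2, and 53.9, 6.96 and 8.1 in sdg8hub2. In hub2 and sdg8hub2 replicate 1 of set 4 lay with wild type and replicates 2 and 3 far below it. The log2 change in sdg8hub2 was -2.02 (95% interval -3.87 to -0.17, limma adjusted p = 0.128), and without sdg8hub2 replicate 1 it was -2.96 (adjusted p = 0.0370). Set 3 stood at -1.40 in sdg8hub2 (95% interval -2.93 to 0.14), and without sdg8hub2 replicate 3 at -2.22 (adjusted p = 0.0481). Sets 1 and 2 stood at 0.06 and -0.41, so the median over the 4 sets, -0.90, joined probe sets of 1 gene that differed from each other by over 2 log2 units. In sdg8 the lowest array of all 4 sets was replicate 3, at 29.4, 12.2, 17.3 and 17.2.

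**Figure D3:**
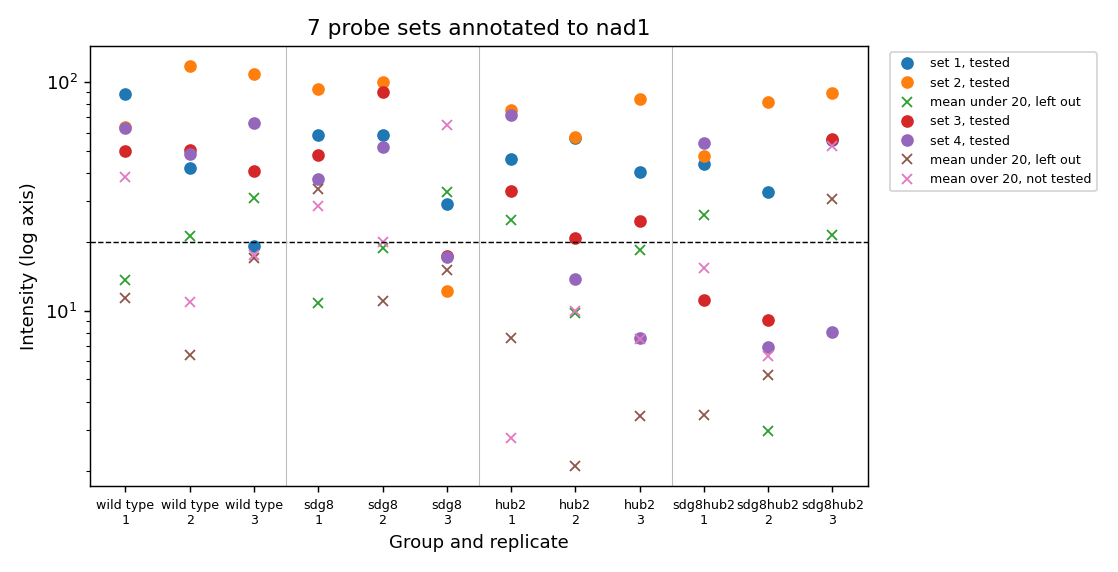
The intensity of the 7 single-name nad1 probe sets on each array, by group and replicate, on a log axis, with circles for the 4 tested probe sets, crosses for the other 3 and a dashed line at the minimum mean of 20. Values of the same probe set differ widely within a group, as for set 4 in hub2, which runs from 7.61 to 71.8.

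Both cox members encode core subunits of cytochrome c oxidase. For cox1 the intensities were 135, 143 and 113 in wild type, 210, 219 and 174 in sdg8, 147, 114 and 117 in hub2, and 232, 228 and 126 in sdg8hub2. All sdg8 arrays lay above all wild-type and hub2 arrays, and so did sdg8hub2 replicates 1 and 2, while sdg8hub2 replicate 3 lay among the wild-type arrays. For cox1 the sdg8 signal exceeded that of hub2 1.60-fold, a log2 difference of 0.68 with a standard error of 0.22 (limma adjusted p = 0.0427). Of the 16 members 2, ccb382 and cox1, passed as higher in sdg8 against hub2, where 7.34% of all probe sets were higher and 8.73% lower.

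Against wild type the log2 change of cox1 was 0.63 in sdg8 (95% interval 0.16 to 1.09, limma adjusted p = 0.0659) and 0.54 in sdg8hub2 (0.07 to 1.00, adjusted p = 0.104), and in hub2 it was -0.05 (-0.51 to 0.42). Neither of the 2 larger changes passed, although the change in sdg8 was called in 6 alternative settings. Without sdg8hub2 replicate 3 the change in sdg8hub2 was 0.83 and was called (adjusted p = 0.00853). The difference between sdg8 and hub2 was not called in 9 settings, with adjusted p of 0.0521 to 0.201, among them leaving out wild type replicate 1, sdg8 replicate 1 or 2, or hub2 replicate 2 or 3.

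For cox2 the intensities ran from 52.1 to 94.4 in wild type, 70.3 to 110 in sdg8, 60.1 to 74.0 in hub2 and 76.7 to 95 in sdg8hub2. The sdg8hub2 arrays lay above the hub2 arrays, and the groups overlapped in the other comparisons. None of the 7 comparisons passed for cox2, with log2 changes against wild type of 0.27 in sdg8, 0.02 in hub2 and 0.35 in sdg8hub2.

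The orf member was orfX, listed in RefSeq as mttB, which encodes a membrane protein related to the TatC subunit of bacterial protein export. Its intensities were 73.0, 59.8 and 74.5 in wild type, 74.0, 88.1 and 77.7 in sdg8, 117, 102 and 76.6 in hub2, and 52.8, 90.4 and 102 in sdg8hub2. All hub2 arrays lay above all wild-type arrays, while the sdg8hub2 arrays spanned both. The log2 change of orfX was 0.50 in hub2 (95% interval -0.13 to 1.12, limma adjusted p = 0.472), 0.21 in sdg8 and 0.19 in sdg8hub2, and none passed. In RefSeq mttB and nad4 are neighbours, and their orders of groups differed: nad4 was highest in sdg8hub2 and orfX in hub2, although no difference of orfX passed.

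The double mutant was set against each single mutant over all members. Against sdg8, 1 of 16 passed (ccb382, higher), where 6.7% of all probe sets were higher and 7.72% lower, and the median log2 difference of the members was 0.34 against -0.01 over all probe sets. Against hub2, 3 of 16 passed (ccb382, nad4 and ccb206, all higher), where 7.17% were higher and 9.85% lower, and the median was 0.42 against -0.04. The comparisons share arrays, so these counts are not independent of each other.

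The groups did not overlap, with all mutant arrays higher, for 4 members in sdg8 (ccb382, nad4, cox1 and nad2), where 15% of all probe sets did so, and for 4 in sdg8hub2 (ccb382, nad4, ccb206 and nad5), where 15.3% did so. In hub2 orfX was higher on all arrays and ccb206, ccb452 and nad1 set 3 were lower on all arrays, where 10.6% of all probe sets were higher and 10.7% lower in this way. No member was lower on all arrays of sdg8 or of sdg8hub2 than in wild type, where 16.6% and 19.8% of all probe sets were.

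By class, the mean log2 signal of the 6 nad members other than nad1 was 5.66 ± 0.24 in wild type, 5.81 ± 0.23 in sdg8, 5.58 ± 0.54 in hub2 and 6.22 ± 0.22 in sdg8hub2 (SD, n = 3 each). The mean of the 4 nad1 sets was 5.84 ± 0.21, 5.38 ± 1.06, 5.17 ± 0.50 and 4.89 ± 0.49 in the same order of groups. It was lowest in sdg8hub2, where that of the other nad members was highest, and in hub2 both means lay below wild type. No nad1 set passed, and in sdg8hub2 the sets ranged from -2.02 to 0.06 in log2 change. The mean of the 2 cox members was 6.55 ± 0.13, 7.0 ± 0.25, 6.53 ± 0.02 and 6.99 ± 0.32, so it was about equal in wild type and hub2 and about equal in both groups with the sdg8 mutation. These class means are given as descriptions, and the ccb mean carries the large change of ccb382.

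**Figure D4:**
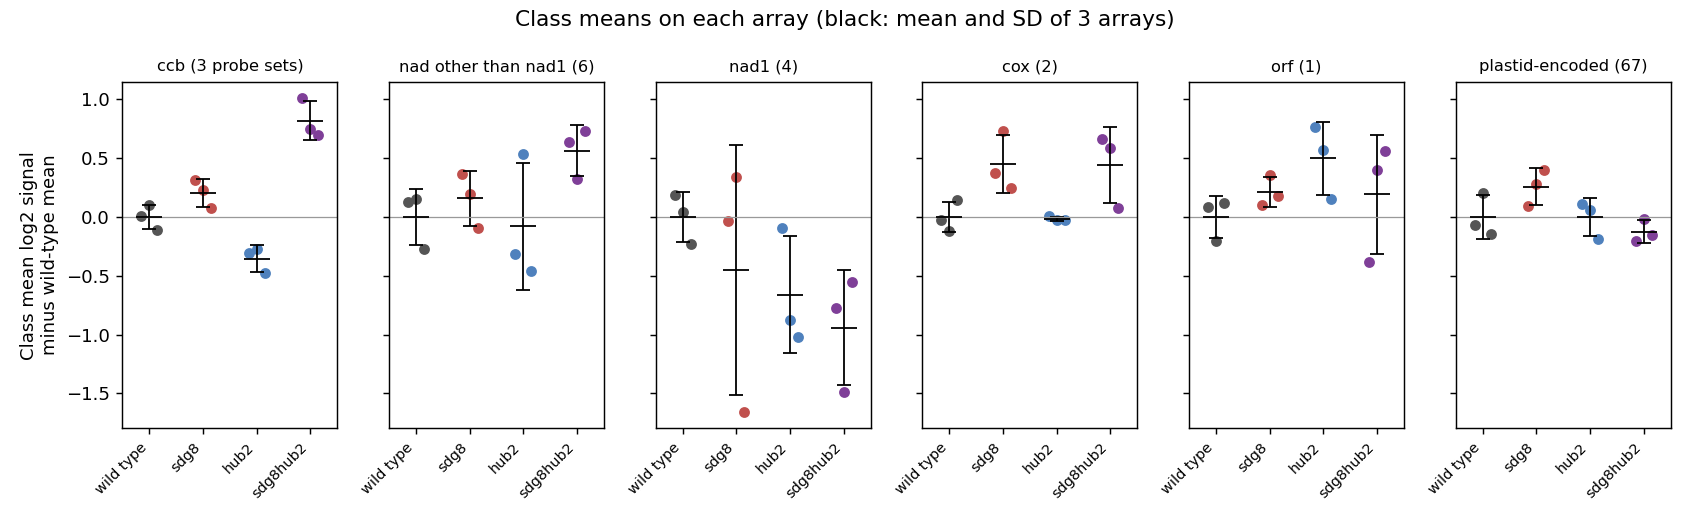
The mean log2 signal of each class on each array, minus the mean of the wild-type arrays, with 1 point for each array and black bars for the mean and SD of 3 arrays in each group. The ccb points of sdg8hub2 lie 0.70 to 1.01 above wild type and those of hub2 0.27 to 0.48 below it, whereas the plastid-encoded probe sets of sdg8hub2 lie at or below the wild-type mean.

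The 67 tested plastid-encoded probe sets, the other organelle genome in these seedlings, gave another order of the groups. Their mean log2 signal was 9.67 ± 0.18 in wild type, 9.93 ± 0.16 in sdg8, 9.66 ± 0.16 in hub2 and 9.54 ± 0.10 in sdg8hub2 (SD, n = 3 each). In sdg8 against wild type 12 of 67 passed as higher and 0 as lower, with a median log2 change of 0.24. Of all probe sets 6.41% were higher and 7.86% lower, and the median of the 16 mitochondrial members was 0.15. In sdg8hub2 1 of 67 passed as higher and 6 as lower, with a median of -0.09, where 8.01% of all were higher and 10.5% lower. In the interaction 0 of 67 passed as higher and 9 as lower, with a median of -0.29. Of the 16 mitochondrial members 1 passed as higher and 0 as lower in the interaction, with a median of 0.26. Over all probe sets the interaction passed as higher in 3.05% and as lower in 3.41%. The difference between the 2 genomes was not tested.

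Nuclear genes whose products work with the members were counted from lists by gene code, of which 22 genes in all were tested. They cover complex I, complex III with cytochrome c, complex IV, cytochrome c maturation, organelle RNA polymerases and mitochondrial RNA processing, and 32 of the 54 codes listed had no tested probe set with a single name. In sdg8 0 of 22 and in hub2 0 of 22 passed by limma, with 3 and 0 at an unadjusted p under 0.05, where over all probe sets 6.41% were higher and 7.86% lower in sdg8, and 1.4% and 1.46% in hub2. In sdg8hub2 5 were higher and 1 lower against wild type, with a median log2 change of 0.17, where 8.01% of all probe sets were higher and 10.5% lower. The 5 were AT4G32470, for a small subunit of complex III, at 0.48 (adjusted p = 0.000534), CYTC-2 and CYTC-1, the cytochrome c genes, at 0.40 and 0.27 (0.0175 and 0.0266), MPPBETA, for a core subunit of complex III that is also the mitochondrial processing peptidase, at 0.27 (0.0277), and AT4G37830, for a complex IV subunit, at 0.27 (0.0450). The lower gene was AT5G61310, of the complex IV list, which fell by 0.53 on the log2 scale (limma adjusted p = 0.0204).

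Of the 8 tested genes of complex III and cytochrome c, 4 rose in sdg8hub2 and 0 fell, where 8.01% of all probe sets were higher and 10.5% lower. The 4 genes were both cytochrome c genes, AT4G32470 and MPPBETA, of which the last 2 encode no cytochrome. The genes for cytochrome c1 of complex III, AT3G27240 and AT5G40810, stood at log2 changes of 0.11 and 0.02 and did not pass (limma adjusted p = 0.461 and 0.908). That count was 1 with no variance trend, 2 without wild type replicate 1, 2 without sdg8hub2 replicate 1 and 1 without sdg8hub2 replicate 2. Neither of the 2 tested complex I genes and neither the tested maturation gene nor any of the 3 tested RNA processing genes passed against wild type in a mutant. Between mutants, 1 RNA processing gene, AT1G74350, was lower in sdg8 than in hub2 (limma adjusted p = 0.0223), at log2 means of 2.67 and 5.86. Of the 22 nuclear genes, 4 were higher and 0 lower in sdg8hub2 than in sdg8 (6.7% and 7.72% of all probe sets). Against hub2, sdg8hub2 had 3 higher and 1 lower (7.17% and 9.85%), and sdg8 had 0 higher and 3 lower (7.34% and 8.73%). AT5G15700, a phage-type RNA polymerase gene, had a log2 change of 1.67 in sdg8hub2 and did not pass (limma adjusted p = 0.176). Its log2 means were 4.22 ± 0.91 in wild type, 4.18 ± 0.77 in sdg8, 4.01 ± 0.93 in hub2 and 5.90 ± 0.71 in sdg8hub2 (SD, n = 3 each). Those of wild type, sdg8 and hub2 lay near the filter on low values.

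For the region of the copy on chromosome 2, 2 sets of probe sets were read. The first was picked by the start of the gene code and not by the limits of the copy, so it can hold genes outside the copy. Of its 25 tested genes, 0 passed by limma in sdg8 and 0 in hub2 (3 and 2 at an unadjusted p under 0.05). In sdg8hub2 1 was lower than in wild type. Of 11 probe sets annotated to a mitochondrial and a chromosome 2 gene together, 9 were tested, and 0 passed by limma in sdg8, 0 in hub2 (2 in each at an unadjusted p under 0.05) and 1, lower, in sdg8hub2. Of the 17 members 4 are of the type that can also bind related sequences (orfX, ccb452, nad6 and nad5), and ccb382, nad4, cox1 and ccb206, which passed in at least 1 comparison, are not of that type. In the comparisons between mutants, 1 of the 9 shared probe sets passed, that of atp1 and AT2G07698. It was higher than in hub2 both in sdg8hub2, by 1.07 on the log2 scale (limma adjusted p = 0.000201), and in sdg8, by 1.10 (limma adjusted p = 0.000144). Its log2 means were 8.10 in wild type, 8.63 in sdg8, 7.52 in hub2 and 8.59 in sdg8hub2. For the 25 genes picked by code, 1 was lower and 0 higher in each comparison between mutants. Over all probe sets, 6.41% were higher and 7.86% lower in sdg8, 1.4% and 1.46% in hub2 and 8.01% and 10.5% in sdg8hub2 against wild type, 7.17% and 9.85% in sdg8hub2 against hub2, 6.7% and 7.72% in sdg8hub2 against sdg8, and 7.34% and 8.73% in sdg8 against hub2. Whether transcripts of the chromosome 2 copy enter their signals was not tested.

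Among the tissue markers, 2 of 6 root genes were measured, neither at 0, and 0 of 6 green tissue genes had a probe set with a single name. The summed intensity of the 2 root genes was 1420 to 1544 in wild type, 1324 to 1483 in sdg8, 973 to 1202 in hub2 and 889 to 1160 in sdg8hub2. In sdg8hub2 both root genes fell, EXPA7 by 0.66 and AT5G17820 by 0.53 on the log2 scale (limma adjusted p = 0.0216 and 0.00141), and in hub2 AT5G17820 fell by 0.49 (adjusted p = 0.0162). The difference between 3' and 5' actin probe sets, a sign of RNA integrity and labelling, was 1.17 ± 0.13 log2 units in wild type, 1.23 ± 0.02 in sdg8, 1.55 ± 0.44 in hub2 and 1.29 ± 0.27 in sdg8hub2 (SD, n = 3 each), and replicate 2 of hub2 stood at 2.06. With this difference as a covariate, ccb382 and nad4 were called in the same comparisons. The part of tissue makeup in these results was not tested.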

How the data were processed

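RNA of 12 whole-seedling samples was measured on 3' expression arrays, 3 arrays for each of 4 genotypes. The deposited table holds linear intensities, 1 for each probe set and array, made with MAS5 and the affy package per the submitters' processing notes, which name no version. The labels name an Affymetrix 3' IVT kit in one field and Agilent's procedure in another, and which was followed is not settled here. Such kits usually prime from poly(A). Arrays carry no read depth, and their number limits the precision.

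Intensities were floored at the 1st percentile (1.18) and log2-transformed. Probe sets under the 20th percentile of the mean log2 value (18.6 in intensity) were left out, leaving 18196. limma 3.58.1 in R 4.3.3 fitted 4 group means with an intensity trend, and 7 comparisons were drawn (3 against wild type, 3 between mutants and the interaction). The p-values are two-sided and Benjamini-Hochberg adjusted over all probe sets tested, with calls at 0.05 and intervals at 95%. The scripts were tested on simulated data. Gene names came from the platform annotation, and RefSeq (TAIR10.1) gave synonyms and gene order.

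All nad, cox and ccb members are named, the orf member too, and of other lists up to 4 called genes in each comparison. The members, lists and tests were chosen with earlier results of these data known. Probe sets for SDG8 and HUB2 themselves were not analysed here. Pairing of samples is not stated beyond the replicate number. Of 18 pairs of arrays with the same number in different groups, 0 had a correlation of their deviations above 0.1 (-0.127 to 0.0363). Those correlations are over all probe sets tested, so they cannot show whether single genes share a replicate effect. For nad4, nad2 and ccb452 replicate 3 was the lowest array of each group, and for ccb382 and nad5 it was not.

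Alternatives changed the offset (64 added), the floor (5th percentile), the filter (50th percentile or none), the scaling, the variance model, array weights, the samples in the fit, a replicate block, an actin covariate and the minimum signal, and left out each array in turn.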

Additional observations from a re-analysis of the deposited data

Results flagged for a closer look

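The change of ccb382 in sdg8hub2 exceeded the sum of the changes in sdg8 and hub2 by 0.85 on the log2 scale, a difference between the effect of the sdg8 mutation with and without the hub2 mutation that passed its own test (limma adjusted p = 0.00960). The sdg8 mutation went with a log2 difference of 1.01 in a wild-type background and of 1.86 in a hub2 background. No group had more than 3 arrays, so single arrays were not tested as outliers.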

How the results depend on the processing

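Of 112 log2 changes (16 members in 7 comparisons) 11 were called, and 5 of these were called in each of the 25 alternative settings run for them: ccb382 in sdg8 and sdg8hub2 against wild type, in sdg8hub2 against hub2 and in sdg8 against hub2, and nad4 in sdg8hub2 against wild type. No called change turned its sign. Of the 101 not called, 10 were called in at least 1 setting and 38 changed sign in at least 1. Without the variance trend the count of members changed was 1 in sdg8 and 4 in sdg8hub2 against wild type, 2 in sdg8hub2 against sdg8 and 1 in sdg8 against hub2. The last count was also 1 with no filter, and 1 with the actin difference as a covariate. With replicate 1 as the lone array of sdg8, assumed to vary like the other groups, the count was 0 in sdg8hub2 against sdg8, 1 in sdg8 against hub2 and 0 in the interaction. Leaving out 1 array at a time gave 1 to 3 members in sdg8 against wild type, 0 to 0 in hub2, 2 to 4 in sdg8hub2, 1 to 1 in sdg8hub2 against sdg8, 1 to 4 in sdg8hub2 against hub2, 1 to 2 in sdg8 against hub2 and 1 to 1 in the interaction. The highest count in sdg8hub2 against wild type came without its replicate 3, and the lowest in sdg8hub2 against hub2 without hub2 replicate 3. A pairing by replicate number is not stated, and over all probe sets tested 1 of 12 arrays correlated best with its own number. With that number as a block, the counts against wild type were 3, 0 and 2. They were 1 for sdg8hub2 against sdg8, 4 for sdg8hub2 against hub2, 2 for sdg8 against hub2 and 1 for the interaction. The cause of these shifts was not tested. Low signal limits what can be read of nad6, with a mean of 26.9, and of the nad1 member that was not tested, at 22.8. It also limits the 5 probe sets below the minimum, at 12.3 to 19.3. The 4 tested nad1 sets are limited by their spread within groups, with pooled SDs of 0.662 to 1.25 on the log2 scale. The means of these sets, 37.1 to 77.4, were also below 100, and each set had at least 1 array under 20. Set 2, at 77.4, lay above ccb206, at 58.9. The part of low signal in the spread of nad1 was not tested.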
